A study of Mus musculus with 6 samples.

Results

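The 81 genes described here carry the names of protein components of the cytosolic ribosome, and 1 of them, Rps4l, is annotated as a transcribed pseudogene. They are every symbol in the expression tables made of Rpl or Rps and a number, with or without a closing a, x, y or l, together with Rplp0, Rplp1, Rplp2 and Rpsa. S6 kinase and pseudogene symbols were left out. The rule took 81 of the 23889 genes listed, of which 49 belong to the large and 32 to the small subunit, and it used no measured value. None of the 81 was listed at 0 in any library.

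Polyadenylated RNA was sequenced in 6 mouse libraries. In 3 of them the RNA came from androgenetic haploid embryonic stem cells (AG-haESCs), which carry only a sperm's genome. Their lines A129-2, AOS-14 and AOS-16 are labelled F1 hybrid C57BL/6 X DBA/2 by strain. To make them, a sperm head was injected into a BDF1 oocyte without its spindle, the egg was activated with SrCl2, and the blastocyst was grown over feeders, in knockout serum replacement plus 2i, a pair of kinase inhibitors that holds stem cells in a naive state. Haploid cells in G0/G1 were sorted with a Hoechst DNA dye for RNA, and each line gave 1 library. The 1 library labelled Round_sperm has the cell type sperm and the same strain label, and its label repeats the text on culture and sorting. The remaining 2 libraries, replicates 1 and 2, are of ESC XX from an Oct-GFP (C57) background, grown in serum with LIF and 2i and collected after a step to remove feeders. Nothing says that these 2 were cultured separately, so their spread may be only technical.

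A ribosome joins a small subunit, which reads the messenger RNA, to a large subunit, which forms peptide bonds. One copy of most ribosomal proteins is needed for each ribosome, and growing cells spend a large part of their messenger RNA on these genes. Many of their messengers start with a C followed by a run of pyrimidines, the 5' terminal oligopyrimidine tract, through which mTOR signalling controls their translation. In the male germ line the X chromosome is silenced at meiosis and stays largely repressed in spermatids, and several X-linked ribosomal protein genes have autosomal copies that are known to be expressed in testis.

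The labels were checked against marker genes, summed as FPKM (fragments scaled to transcript length and library depth). All 9 spermatid markers, such as the protamines Prm1 and Prm2, were present in round sperm, at 45277 FPKM in all, and summed to between 0.104 and 2.66 FPKM in the other 5 libraries. Spermatocyte markers, 7 genes, were present there too. They summed to 317 FPKM in round sperm, 32.0 to 55.7 FPKM in the AG-haESC lines and 13.1 and 12.3 FPKM in ESC XX. Whether other germ cells contributed to the round sperm library was not tested. The 8 pluripotency markers summed to 33.7 FPKM in round sperm, to between 4115 and 5388 FPKM in the AG-haESC lines, and to 3972 and 4025 FPKM in ESC XX. Markers of feeder fibroblasts, 8 genes, summed to 13.2 FPKM in round sperm, 136 to 272 FPKM in the AG-haESC lines and 1060 FPKM in each ESC XX library. Their part in the results was not tested. The depth was estimated from the spacing of low values at roughly 8.26 to 17.6 M (mega) fragments a library, so low values rest on few fragments.

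Ribosomal protein messengers made up a small part of the round sperm library and a far larger part in the 5 others. Their share of the summed FPKM of all genes was 3.47% in round sperm. In A129-2, AOS-14 and AOS-16 it was 26.7%, 26.2% and 28.0%, a mean of 27.0% ± 0.920 (SD, n = 3). In ESC XX it was 26.1% and 26.03%. The stem cell libraries lay close together and round sperm far below them, and with 1 round sperm library the spread among such samples is unknown. In bulk samples like these, fewer cells of a type and less RNA per cell cannot be told apart.

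The same contrast stood out in the ranking of genes. Among the 100 genes with the highest FPKM, 5 were ribosomal protein genes in round sperm, 65, 60 and 62 in A129-2, AOS-14 and AOS-16, and 64 in each ESC XX library. The median member stood at 373 FPKM in round sperm, at 1637, 2192 and 1888 FPKM in the 3 lines, and at 1477 and 1504 FPKM in ESC XX. Round sperm was also the most uneven library, with an SD of 2.21 on the log2 scale over the 81 members, against 1.71 to 1.99 in the AG-haESC lines and 1.73 and 1.74 in ESC XX. The summed TPM (FPKM rescaled to the same total in each library) of the small subunit was 0.738 of that of the large subunit in round sperm and 0.780 to 0.829 of it elsewhere. In TPM the median member stood at 301 in round sperm, 3215, 3099 and 3455 in A129-2, AOS-14 and AOS-16, and 2910 and 2962 in ESC XX. The order of the 3 lines thus turned with the scale.

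**Figure D1:**
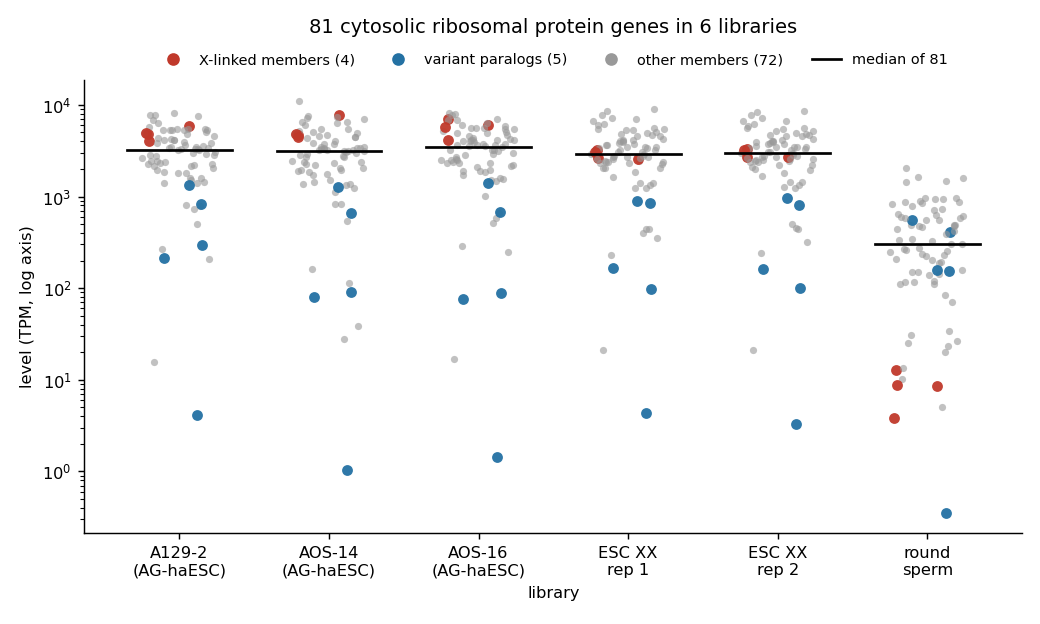
Level of each of the 81 members (points) in the 6 libraries, in TPM on a log axis, with the median as a bar. The X-linked members sit among the others in the AG-haESC and ESC XX libraries and below nearly all members in round sperm, where the median is 301 TPM.

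A few genes held the ends of the range. In round sperm the members of highest level were Rpl41, which encodes the smallest ribosomal protein, at 2511 FPKM, Rpl36 at 1999, Rps29 at 1974, Rps20 at 1807 and Rpl38 at 1804 FPKM. In the AG-haESC lines the highest means were those of Rplp1, part of the stalk that recruits elongation factors, at 5423 ± 2129 FPKM (SD, n = 3), Rps2 at 4170 ± 204, Rpl41 at 4106 ± 1133, Rps20 at 4100 ± 412 and Rps12 at 4097 ± 539 FPKM. The ESC XX libraries were led by Rps26, whose product lies by the path of the messenger RNA, at 4600 and 4333 FPKM. After it came Rpl41 at 4330 and 4208 FPKM, Rps12 at 3916 and 3957, Rpl23a at 3656 and 3623 and Rps28 at 3526 and 3426 FPKM. Rpl41 was thus among the highest 5 in every group.

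The lowest member in all 6 libraries was Rpl3l, a paralog of Rpl3 known from striated muscle, at 0.439 FPKM in round sperm, 2.08, 0.734 and 0.781 in the 3 lines, and 2.19 and 1.69 in ESC XX. In round sperm the next lowest were Rps4x at 4.77, Rpl26 at 6.29, Rpl39 at 10.6 and Rpl36a at 10.9 FPKM. In the AG-haESC lines they were, by mean, Rpl39l at 68.7 ± 34.5 FPKM (SD, n = 3), Rpl10l at 87.2 ± 54.5, Rpl30 at 90.2 ± 56.5 and Rps15a at 135 ± 22.2 FPKM. Taken line by line, Rps27 was next lowest in A129-2 and AOS-16, at 7.97 and 9.10 FPKM, but stood at 1701 FPKM in AOS-14. There Rpl26 was next lowest, at 19.5 FPKM. In ESC XX the next lowest were Rps27 at 10.6 and 10.8, Rpl10l at 49.4 and 51.3, Rpl39l at 85.2 and 82.7 and Rps15a at 116 and 123 FPKM. The X-linked genes near the bottom in round sperm and their paralogs near the bottom in stem cells are taken up below.

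The comparison of AG-haESCs with round sperm, which share a table, used limma on log2(FPKM + 1) over 15938 genes at 1 FPKM or more in at least 1 of the 4 libraries. Calls needed a difference of at least 1 and a p under 0.05 after Benjamini-Hochberg adjustment. Of the 81 members, 58 rose in AG-haESCs, where 22.8% of all genes tested were called higher. One member, Rpl39l, fell, where 39.1% of all genes were called lower, and 22 were not called. In 77 of the 81 all 3 lines lay above round sperm, against 39.3% of all genes. The 4 exceptions were Rpl39l and Rpl10l, with all lines below, as in 51.6% of all genes, and Rps27 and Rpl30, where round sperm lay within their range. The median difference over the members was 2.24 and that over all genes -0.49. The large subunit had 33 genes higher and 1 lower of 49, with a median of 2.27, and the small subunit 25 higher and 0 lower of 32, with a median of 2.203.

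The size of this difference depends on the scale. With each library brought to the same total, which moved the median of all genes to 0.40, 72 members were called higher and 0 lower, with a median of 3.33, where 30.5% of all genes were called higher and 28.1% lower. Without AOS-16, 35 members were called higher and 0 lower, and the median was 2.26. Calls were fewer over all genes there too, at 16.7% higher and 33.3% lower. Rpl39l was not called without AOS-14 either, and without A129-2 both it and Rpl10l were called lower.

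**Figure D2:**
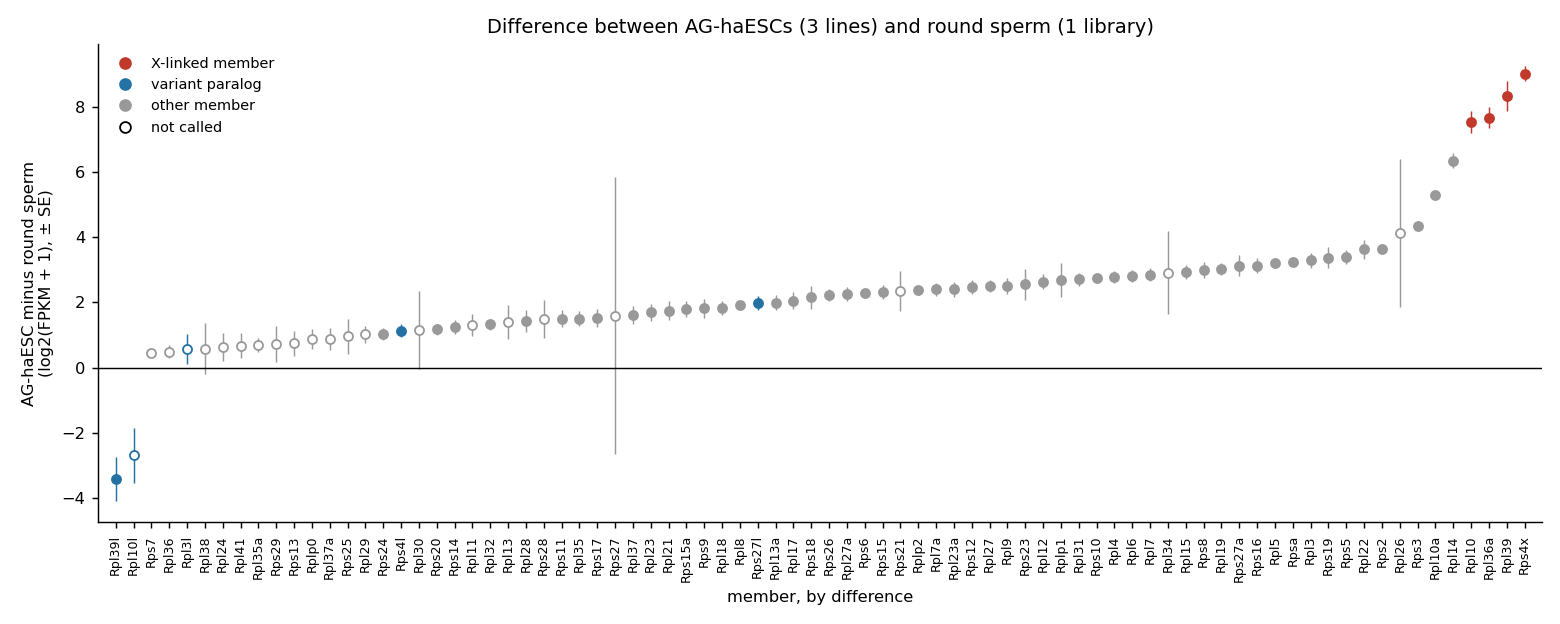
Difference between the AG-haESC lines and round sperm for 80 of the 81 members in log2(FPKM + 1), ordered by size, with limma's standard error as bars. Filled points were called. The 4 X-linked members stand at the right end and Rpl39l and Rpl10l, at -3.40 and -2.69, at the left end.

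The 4 X-linked members had the highest differences of all 81. Rps4x, a small subunit protein, stood at 4.77 FPKM in round sperm, at 2520, 3443 and 3104 FPKM in A129-2, AOS-14 and AOS-16, and at 1572 and 1640 FPKM in ESC XX. It rose by 9.02 ± 0.24 (SE) on the log2 scale in AG-haESCs (limma, adjusted p = 0.000584), a 633-fold ratio of mean FPKM. All 3 lines lay far above round sperm.

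Rpl39, whose product lines the tunnel through which the new peptide leaves, stood at 10.6 FPKM in round sperm, at 3013, 5423 and 3272 FPKM in the 3 lines, and at 1291 and 1356 FPKM in ESC XX. It rose by 8.34 ± 0.46 (limma, adjusted p = 0.00246). Rpl36a, a large subunit protein near the exit site of transfer RNA, stood at 10.9 FPKM in round sperm, 2049, 3121 and 2259 FPKM in the lines, and 1352 and 1385 FPKM in ESC XX. It rose by 7.67 ± 0.32 (limma, adjusted p = 0.00148). Rpl10, which joins the large subunit late in its assembly, stood at 16.0 FPKM in round sperm, 2449, 3347 and 3839 FPKM in the lines, and 1633 and 1659 FPKM in ESC XX, and rose by 7.54 ± 0.34 (limma, adjusted p = 0.00166). Each of the 4 stayed called under every scaling, filter and left-out line tried.

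Relative to the median member of the same library, on the log2 scale, the 4 X-linked genes lay from -4.44 for Rpl10 to -5.96 for Rps4x in round sperm. In the AG-haESC lines they lay from 0.26 for Rpl36a in AOS-16 to 1.31 for Rpl39 in AOS-14. The 77 autosomal members had 54 called higher and 1 lower, with a median difference of 2.05, and the X-linked members a median of 8.01. Over all 672 X-linked genes tested the median was 1.29, with 305 called higher and 177 lower.

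Every one of the 4 has an autosomal copy in the tables, and in round sperm that copy held nearly all of the pair. Rpl39l, on chromosome 16, stood at 682 FPKM in round sperm, at 108, 56.4 and 42.1 FPKM in A129-2, AOS-14 and AOS-16, and at 85.2 and 82.7 FPKM in ESC XX. It fell by 3.40 ± 0.68 on the log2 scale (limma, adjusted p = 0.0309), and round sperm lay above all 3 lines. That call was lost at the same total, where the difference was -2.32 (limma, adjusted p = 0.0957), and over the left-out lines its adjusted p ran from 0.0225 to 0.124. Rpl10l, on chromosome 12, stood at 505 FPKM in round sperm, 150, 64.3 and 47.9 FPKM in the lines, and 49.4 and 51.3 FPKM in ESC XX. Its difference of -2.69 ± 0.83 did not pass (limma, adjusted p = 0.0756), though round sperm again lay above all 3 lines.

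The other copies were not high in round sperm alone. Rpl36al, which ends in 2 letters and so falls outside the symbol rule, stood at 460 FPKM in round sperm, 454, 696 and 598 FPKM in the lines, and 711 and 736 FPKM in ESC XX, and was not called (0.32 ± 0.32, limma adjusted p = 0.440). Rps4l, annotated by RefSeq as a transcribed pseudogene, stood at 190 FPKM in round sperm, 422, 472 and 367 FPKM in the lines, and 426 and 407 FPKM in ESC XX. It rose by 1.13 ± 0.20 (limma, adjusted p = 0.0236), a call lost when any of the 3 lines was left out, with adjusted p from 0.0578 to 0.0861.

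In round sperm the copy made up 98.5% of the summed FPKM of Rpl39 and Rpl39l, 96.9% of Rpl10 and Rpl10l, 97.7% of Rpl36a and Rpl36al and 97.6% of Rps4x and Rps4l. In the AG-haESC lines its share ran from 1.03% to 3.45% for Rpl39l, 1.23% to 5.75% for Rpl10l, 18.1% to 20.9% for Rpl36al and 10.6% to 14.4% for Rps4l. In ESC XX the copies held 5.74% and 6.19%, 2.94% and 2.9995%, 34.5% and 34.7%, and 19.9% and 21.3% of these pairs. Over the 4 pairs together, the copies summed to 1483 TPM in round sperm, against 1822 to 2225 TPM in the lines and 2506 and 2515 TPM in ESC XX. The X-linked genes summed to 34.1 TPM in round sperm, 19694, 21679 and 22828 TPM in the lines, and 11520 and 11897 TPM in ESC XX. The order of the copies turns with the scale, since in FPKM as deposited they summed to 1838 in round sperm, above 1133, 1288 and 1055 in the lines and 1272 and 1277 in ESC XX. The X-linked genes were lowest in round sperm on both scales, and Rpl39l and Rpl10l were highest there on both.

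**Figure D3:**
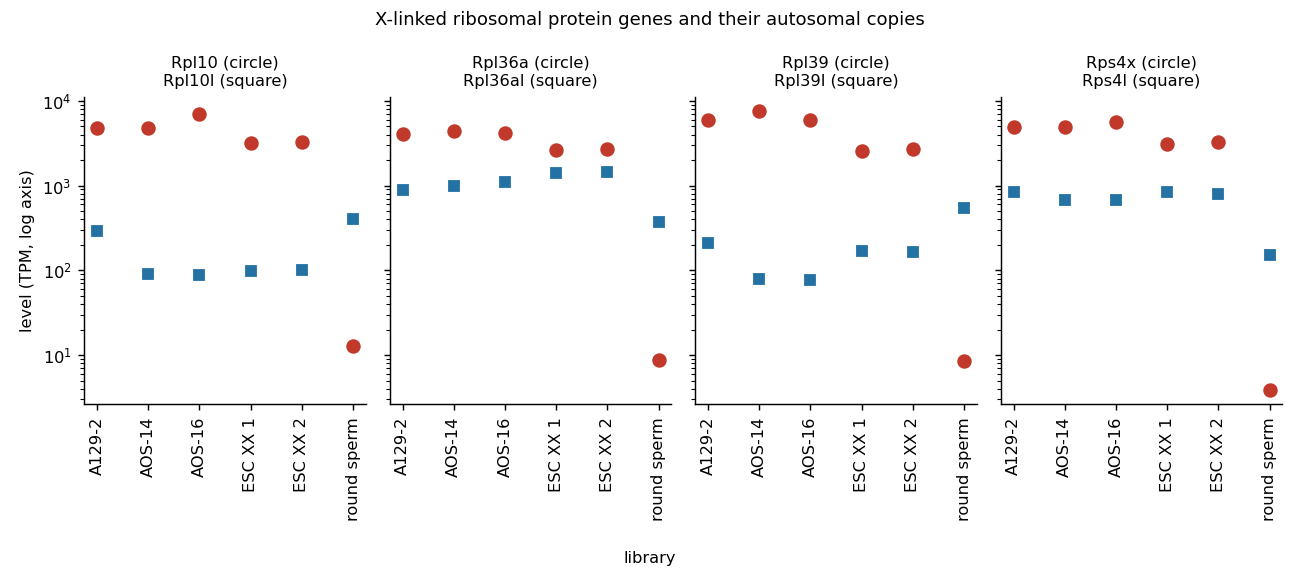
TPM on a log axis of the 4 X-linked members (circles) and their autosomal copies (squares) in each library. In round sperm the squares lie above the circles in all 4 pairs, and in the other 5 libraries the circles lie above the squares.

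The sequences of Rpl39 and Rpl39l are shown because aligned reads must tell such pairs apart. The coding sequences, from the GENCODE M21 transcripts on GRCm38 without the stop codon, are each 153 bases long and differ at 23 of them, an identity of 85.0%. Capitals mark the bases that differ.
Rpl39: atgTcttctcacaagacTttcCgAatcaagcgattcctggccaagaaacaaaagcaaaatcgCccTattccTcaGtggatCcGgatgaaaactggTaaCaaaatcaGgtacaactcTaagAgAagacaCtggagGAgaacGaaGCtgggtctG
Rpl39l: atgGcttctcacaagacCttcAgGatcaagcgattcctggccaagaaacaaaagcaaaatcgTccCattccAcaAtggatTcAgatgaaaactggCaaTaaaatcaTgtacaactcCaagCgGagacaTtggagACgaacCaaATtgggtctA
Identity was 84.7% over 642 bases for Rpl10 and Rpl10l, 87.7% over 318 bases for Rpl36a and Rpl36al and 79.6% over 789 bases for Rps4x and Rps4l.

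The promoters of these genes were set beside those of other members. RefSeq's table on GRCm38.p6 held a window, from 250 bases before to 50 after a gene's start, for 60 of the 81 members, 72 windows in all. Shown are 70 bases of each, 40 before the start and 30 from it, on the gene's strand. The windows are those of the 4 X-linked genes, of their copies Rpl10l and Rpl39l, and of Rpl28 and Rps6 as members with a pyrimidine tract at the start. Capitals mark, on the gene's strand, a C followed by at least 4 C or T that begins within 5 bases of the start. They also mark CCGGAAG (the core of an ETS factor site) and TATAAA, each on either strand. A pyrimidine tract can overlap the reverse strand of CCGGAAG. Matches outside the 70 printed bases are not shown, which are CCGGAAG for Rpl39l and Rps6 and TATAAA for Rpl39.
Rpl10, chrX:74270776-74270845, plus strand: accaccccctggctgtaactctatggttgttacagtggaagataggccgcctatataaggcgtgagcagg
Rpl36a, chrX:134585614-134585683, plus strand: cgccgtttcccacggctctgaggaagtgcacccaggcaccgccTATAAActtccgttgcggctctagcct
Rpl39, chrX:37085193-37085262, minus strand: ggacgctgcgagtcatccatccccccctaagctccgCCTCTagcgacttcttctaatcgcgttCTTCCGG
Rps4x, chrX:102189362-102189431, minus strand: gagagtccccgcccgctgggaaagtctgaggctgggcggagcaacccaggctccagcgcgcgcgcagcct
Rpl10l, chr12:66284372-66284441, minus strand: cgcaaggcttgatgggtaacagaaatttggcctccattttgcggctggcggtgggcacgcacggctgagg
Rpl39l, chr16:10170188-10170257, plus strand: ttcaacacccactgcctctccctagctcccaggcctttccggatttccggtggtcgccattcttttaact
Rpl28, chr7:4792925-4792994, plus strand: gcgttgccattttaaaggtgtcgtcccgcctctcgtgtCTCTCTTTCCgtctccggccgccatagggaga
Rps6, chr4:86857338-86857407, minus strand: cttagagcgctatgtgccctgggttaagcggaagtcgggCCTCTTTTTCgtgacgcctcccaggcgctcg
Rpl28 and Rps6 show the tract at the start, and of the X-linked genes Rpl39 alone has one within 5 bases of it.

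Over all member windows, a tract beginning exactly at the annotated start was found in 13 of 72, or 18.1%, against 2.51% of all 32851 windows in the table. Within 5 bases of the start the shares were 41.7% and 18.3%. CCGGAAG on either strand was found in 36.1% of member windows and 8.86% of all, AAGATGGC (the core of a YY1 site) on either strand in 9.72% and 2.75%, and TATAAA on either strand in 8.33% and 13.6%. These are matches of letters near an annotated start, and the start used in these cells was not measured.

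Among autosomal members, the genes next in size belonged to both subunits. Rpl14, a large subunit protein, stood at 12.7 FPKM in round sperm and at 1099, 967 and 1307 FPKM in A129-2, AOS-14 and AOS-16, and rose by 6.35 ± 0.23 (limma, adjusted p = 0.00108). Rpl10a, in the mobile L1 stalk where spent transfer RNA leaves, stood at 31.2 FPKM in round sperm and at 1185, 1298 and 1281 FPKM in the lines, and rose by 5.29 ± 0.11 (limma, adjusted p = 0.000343). Rps3, at the entry of the messenger RNA channel, stood at 42.4 FPKM in round sperm and at 812, 975 and 868 FPKM in the lines, and rose by 4.35 ± 0.16 (limma, adjusted p = 0.00106). Its neighbour Rps2 stood at 332 FPKM in round sperm and at 3935, 4268 and 4306 FPKM in the lines, and rose by 3.65 ± 0.12 (limma, adjusted p = 0.000874). All lines lay above round sperm in each of these. ESC XX lay near the lines, at 1044 and 1071 FPKM for Rpl14, 1210 and 1208 FPKM for Rpl10a, 681 and 672 FPKM for Rps3 and 3112 and 3120 FPKM for Rps2.

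Rpl22, an RNA-binding protein of the large subunit, stood at 24.6 FPKM in round sperm and at 256, 387 and 316 FPKM in the lines, and rose by 3.63 ± 0.30 (limma, adjusted p = 0.00544). Its paralog Rpl22l1, outside the symbol rule, stood at 327 FPKM in round sperm and at 166, 101 and 199 FPKM in the lines, and its difference of -1.12 ± 0.50 did not pass (limma, adjusted p = 0.149). Rpl22l1 held 93.0% of the pair in round sperm, 20.8% to 39.4% in the lines and 42.0% and 42.6% in ESC XX. Other autosomal pairs went either way in round sperm. Rpl7l1 held 3.61% of its sum with Rpl7 there and Rpl3l 0.302% of its sum with Rpl3, but Rps27l held 92.1% of its sum with Rps27. The share of Rpl7l1 was low in the other libraries too, at 2.97% to 5.12%. That of Rps27l was not high in round sperm alone, at 98.8%, 34.3% and 98.8% in A129-2, AOS-14 and AOS-16. In ESC XX it was 97.7% and 97.8%. The pairs of Rps27 and Rpl34 with near-identical copies are given below.

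By role, the stalk proteins Rplp1 and Rplp2 rose by 2.69 ± 0.53 and 2.38 ± 0.14 (limma, adjusted p = 0.0308 and 0.00284). The call of Rplp1 was lost without A129-2 or without AOS-16, with limma's adjusted p up to 0.106. Their anchor Rplp0 did not pass at 0.88 ± 0.31 (limma, adjusted p = 0.0981), though it did without A129-2 (0.0374). Rpl5, which with Rpl11 carries the 5S ribosomal RNA into the large subunit, stood at 87.9 FPKM in round sperm and 737, 883 and 851 FPKM in the lines, and rose by 3.21 ± 0.16 (limma, adjusted p = 0.00204). Rpl11 stood at 879 FPKM in round sperm and 1880, 2852 and 1939 FPKM in the lines, and did not pass at 1.31 ± 0.34 (limma, adjusted p = 0.0542), though it did without AOS-14 (0.0225). At the same total both Rplp0 and Rpl11 were called higher, by 1.97 and 2.40 (limma, adjusted p = 0.0148 and 0.00227). Rps6, the target of S6 kinase, rose by 2.28 ± 0.14, Rps19, a gene mutated in Diamond-Blackfan anaemia, by 3.38 ± 0.32 and Rpsa by 3.26 ± 0.12 (limma, adjusted p = 0.00314, 0.00716 and 0.00119). Within the stalk the differences as deposited thus ran from 0.88 to 2.69, and differences between members were not tested.

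Rpl26 also ranked among the 10 highest, at 6.29 FPKM in round sperm and 368, 19.5 and 279 FPKM in the lines, but its difference of 4.14 ± 2.26 did not pass (limma, adjusted p = 0.209). Its value in AOS-14 lay far below those of the other lines, and without AOS-14 it was called (limma, adjusted p = 0.0205).

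At the other end, 8 members with small positive differences followed Rpl39l and Rpl10l. Rps7, a small subunit protein, stood at 1089 FPKM in round sperm and at 1405, 1606 and 1463 FPKM in the lines, a difference of 0.45 ± 0.13 that did not pass (limma, adjusted p = 0.0698). Rpl36, of the large subunit, stood at 1999 FPKM in round sperm and 2729, 3205 and 2529 FPKM in the lines, with 0.49 ± 0.20 (limma, adjusted p = 0.125). The differences of Rpl3l, Rpl38, Rpl24, Rpl41, Rpl35a and Rps29 were 0.56, 0.58, 0.63, 0.67, 0.70 and 0.72. None of these 8 was called as deposited. At the same total, Rps7, Rpl36, Rpl24, Rpl41, Rpl35a and Rps29 were called higher in AG-haESCs, and Rpl3l and Rpl38 were not. Rps27l, a paralog of Rps27 induced by p53, stood at 196 FPKM in round sperm and at 680, 889 and 764 FPKM in the lines, and rose by 1.98 ± 0.21 (limma, adjusted p = 0.00861), a call lost without AOS-16 (0.0572).

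Against ESC XX, whose libraries were scaled apart, levels were compared as log2(TPM + 1) after removing the median difference over 13172 genes, with no test. A gene was called when the means differed by at least 1 and the groups did not overlap. Only Rpl39 was called higher among the 81, where 7.37% of all genes were, and only Rpl30 lower, where 8.28% were. Without A129-2, Rpl10 was called higher as well. The median over the members was 0.07, with an SD of 0.12 between the 3 lines' medians. Without the size bound, all 3 lines lay above both ESC XX libraries in 30 members and below both in 15, where 24.9% of all genes lay above and 25.7% below.

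Rpl39 was higher by 1.41 ± 0.21 (SD of the 3 lines), 2.502-fold in mean TPM. The 3 other X-linked members lay above both ESC XX libraries in all 3 lines as well, with Rpl10 at 0.84 ± 0.32, Rps4x at 0.80 ± 0.12 and Rpl36a at 0.73 ± 0.07. Over all 525 X-linked genes kept, the median was 0.92, with 239 called higher and 12 lower. The X-linked members, at a median of 0.82, thus lay near the median of X-linked genes. Rpl30, a large subunit protein, was lower by -1.30 ± 1.46, an SD larger than the difference, and was not called without AOS-14.

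**Figure D4:**
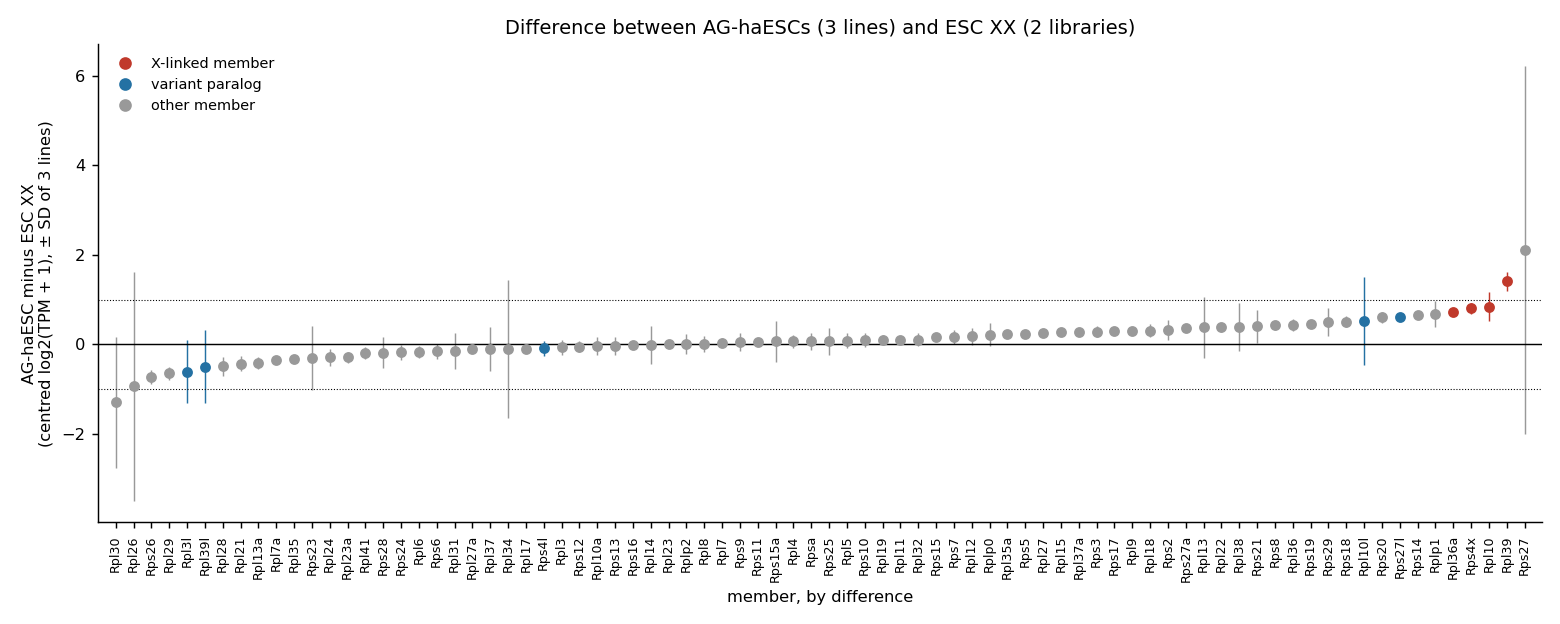
Difference between the AG-haESC lines and ESC XX for 80 of the 81 members in log2(TPM + 1) after removing the median of all genes, with the SD of the 3 lines as bars and dotted lines at -1 and 1. Most members lie near 0, the 4 X-linked members stand together at the right, and Rps27, Rpl26, Rpl34 and Rpl30 have the widest bars.

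The 3 lines shared most of their pattern. The Pearson correlation of log2(TPM + 1) over the 81 members, given as a description, was 0.984 between A129-2 and AOS-16, 0.827 and 0.857 between AOS-14 and these, and 0.999 between the ESC XX libraries. Round sperm stood at 0.517 to 0.600 with the others. These points share library, depth and gene length.

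AOS-14 stood apart in a few members. In a comparison chosen after its values were seen, a gene was called when AOS-14 differed by at least 1 from the mean of A129-2 and AOS-16 and lay on the same side of both. Of the 81 members, 2 were called higher, Rps27 and Rpl38, where 5.15% of all 12637 genes were. The 3 called lower were Rpl26, Rpl34 and Rpl30, where 2.5% of all genes were. Counts this small do not set the members apart as a set. Rps27, a zinc finger protein of the small subunit, stood at 7.97 FPKM in A129-2, 1701 in AOS-14, 9.10 in AOS-16, 10.6 and 10.8 in ESC XX and 16.8 in round sperm, a difference of 7.45 for AOS-14. Rpl26, which lies by the exit of the peptide tunnel, stood at 368, 19.5 and 279 FPKM in the lines, a difference of -4.09. Rpl34 stood at 400, 79.7 and 357 FPKM, a difference of -2.34, and Rpl30 at 106, 27.5 and 137 FPKM, a difference of -2.21. Rpl38, known for its part in translating Hox messengers, stood at 1958, 5050 and 1993 FPKM, a difference of 1.25.

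Some of these genes have a near-identical copy in the same tables. The coding sequences of Rps27, on chromosome 3, and Rps27rt, on chromosome 9, both of 252 bases without the stop codon, have 0 mismatches, so the run below stands for both and is shown because no read within it can be assigned to either gene.
Rps27 and Rps27rt: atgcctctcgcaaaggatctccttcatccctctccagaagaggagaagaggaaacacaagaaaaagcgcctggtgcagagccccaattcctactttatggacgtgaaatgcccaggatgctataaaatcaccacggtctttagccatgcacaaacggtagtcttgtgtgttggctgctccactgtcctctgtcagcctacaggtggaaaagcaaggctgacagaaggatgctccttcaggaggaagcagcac
Rps27rt stood at 2592, 2958 and 3254 FPKM in the 3 lines, 2436 and 2500 in ESC XX and 2352 in round sperm. It held 63.5% of the pair in AOS-14 and between 99.3% and 99.7% in the 5 other libraries. The pair summed to 5104, 6587 and 5972 TPM in the lines, so the sum was far more even than Rps27 alone. Rpl34 and the pseudogene Rpl34-ps1 differ at 2 of 351 aligned bases, an identity of 99.4%. Rpl34-ps1 held 80.0%, 97.1% and 82.1% of that pair in the 3 lines, 86.7% and 87.2% in ESC XX and 97.7% in round sperm, and the pair summed to 3925, 3863 and 3642 TPM in the lines. The levels of Rps27 and Rpl34 alone are uncertain for this reason.

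**Figure D5:**
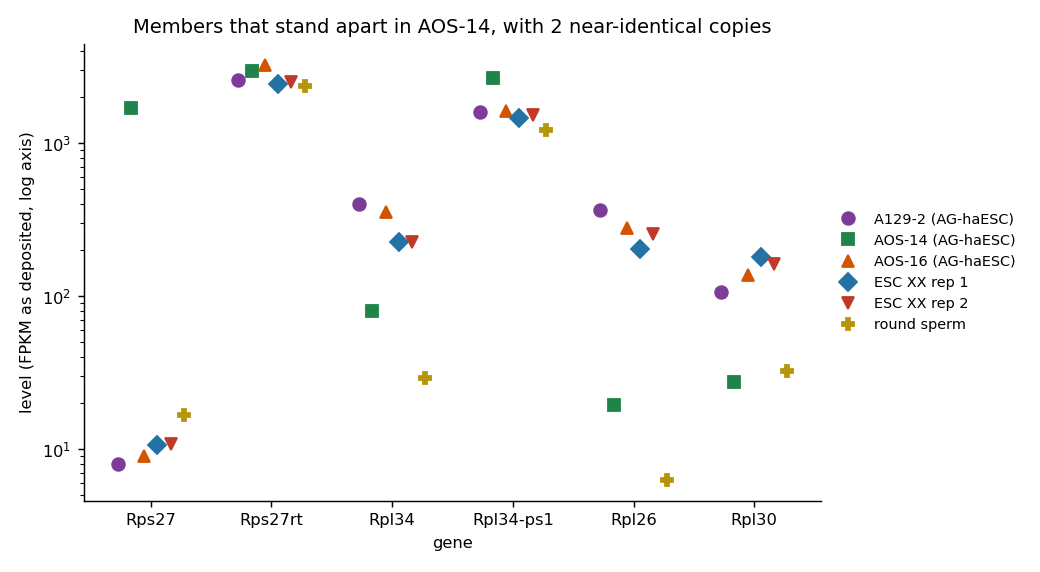
FPKM as deposited, on a log axis, of 4 members that stand apart in AOS-14 and of the near-identical copies Rps27rt and Rpl34-ps1, by library (symbols). AOS-14 is the 1 library with Rps27 above 1000 FPKM, and its Rpl26, Rpl34 and Rpl30 lie below those of the other lines.

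AOS-14 also held 12.7% of its summed FPKM in genes with transcripts under 200 bases, against 6.26% in round sperm and at most 0.111% in the others. With such genes left out, the members' share was 30.01% in AOS-14, 26.7% and 28.0% in A129-2 and AOS-16, 26.1% in each ESC XX library and 3.70% in round sperm. The part of transcript length in the AOS-14 values was not tested beyond a description over 80 members with a known length. Spearman's rho between length and AOS-14 minus AOS-16 was -0.33, against 0.03 for A129-2 minus AOS-16. The Pearson correlations were -0.09 and 0.05.

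A129-2 differed from both AOS lines, by the same size rule and with no replicate of a line, in 5 members. Rpl26, Rpl10l, Rpl34 and Rpl39l were higher, by 2.38, 1.504, 1.32 and 1.22, where 6.73% of all 12637 genes were called higher, and Rps27 was lower, by -3.83, where 8.17% were called lower. With Rps27, Rpl26, Rpl30 and Rpl34 left out, 2 were called, the paralogs Rpl10l and Rpl39l, both higher. Without AOS-14 there were 2 higher and 0 lower, and without AOS-16, 5 higher and 3 lower. The median over the members was -0.18.

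Rpl13, a large subunit gene on chromosome 8, was high in A129-2 without reaching the size bound. It stood at 4167, 2385 and 2139 FPKM in A129-2, AOS-14 and AOS-16, and at 2006 and 1974 FPKM in ESC XX, a difference of 0.97 between A129-2 and the AOS lines. Over all 685 chromosome 8 genes kept, the median difference was 0.87, with 269 called higher and 24 lower. Against round sperm, Rpl13 did not pass at 1.40 ± 0.52 (limma, adjusted p = 0.106).

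Other genes of protein synthesis were called in both directions against round sperm, with a balance that moved with the scale. Ribosome biogenesis genes had 19 called higher and 3 lower of 36, with a median difference of 1.34, and 27 and 1 at the same total. Among them Dkc1, the pseudouridine synthase of ribosomal RNA, rose by 6.10 ± 0.28 and Ncl (nucleolin) by 5.74 ± 0.11, and Wdr12 and Nop14 fell by 2.82 and 1.67 (limma, adjusted p = 0.00176, 0.000300, 0.00828 and 0.00542). RNA polymerase I genes had 6 called higher and 2 lower of 13, and 7 and 0 at the same total, with Ubtf and Rrn3 rising by 4.39 and 4.09 (limma, adjusted p = 0.00254 and 0.00430). Polr1d was called lower at -1.80 ± 0.28 (limma, adjusted p = 0.0194), and Znrd1 did not pass at -1.45 ± 0.61 (limma, adjusted p = 0.135). Mitochondrial ribosomal proteins had 22 called higher and 17 lower of 77, with a median of 0.09, and initiation factors 13 and 10 of 55, with a median of 0.01. At the same total these became 42 and 4 of 77, with a median of 1.15, and 26 and 6 of 55, with a median of 1.06. The X-linked initiation factor Eif2s3x rose by 6.24 ± 0.25, and its Y-linked partner Eif2s3y fell by 6.26 (limma, adjusted p = 0.00134 and 0.000131), with at most 0.0969 FPKM in the lines. Other messengers with a pyrimidine tract had 7 called higher and 3 lower of 20, with a median of 0.83, and 13 and 1 at the same total. One of the 3 lower calls is Eef1a1, listed at 0 in the AG-haESC lines. Vim (vimentin) rose by 5.38 and Pabpc1, the poly(A)-binding protein, fell by 1.55 (limma, adjusted p = 0.00578 and 0.0310).

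Of a list of 6 ribosomal proteins outside the symbol rule, which is not complete, 2 were called higher, and 5 at the same total. Gnb2l1, which encodes the small subunit protein Rack1, stood at 40.7 FPKM in round sperm and 1557, 1833 and 1903 FPKM in the lines, and rose by 5.40 ± 0.17 (limma, adjusted p = 0.000861). Rpl7l1 rose by 2.75 ± 0.27 (limma, adjusted p = 0.00765). Rps3a1, outside both the rule and this list, stood at 195 FPKM in round sperm and 1975, 2201 and 2097 FPKM in the lines. It rose by 3.42 ± 0.12 (limma, adjusted p = 0.00100). Elongation factors had 3 called higher and 3 lower of 11, and 4 and 1 at the same total. One of the 3 lower calls is again Eef1a1, which is listed at 0 in all 3 AG-haESC libraries and at 6397 and 6462 FPKM in ESC XX. A listed 0 can be a failed estimate, and no fold is given. Against ESC XX, where 7.37% of all genes were called higher and 8.28% lower, few of these genes were called. There were 0 of 77 mitochondrial ribosomal proteins, 0 higher and 1 lower of 36 ribosome biogenesis genes and 0 of 13 RNA polymerase I genes. Initiation factors had 1 higher and 1 lower of 54, elongation factors 0 and 1 of 11, and other messengers with a pyrimidine tract 0 and 2 of 20. The lower calls of the last 2 lists include Eef1a1.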

How the data were processed

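The authors deposited FPKM values, read here as such from the headers of the ESC XX tables and, for the shared table of the AG-haESC and round sperm libraries, from the tool named and the size of the values. The tools were TopHat2 2.0.13 and Cuffdiff 2.2.1 with the build mm9, per the submitters' processing notes. How they handled strand, multiple alignments and scaling is not given in the sources used. No read counts were used.

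Members were found by symbol. Transcript lengths and coding sequences came from GENCODE M21 (GRCm38). The chromosomes used to group genes, the promoters and the biotypes came from RefSeq (GRCm38.p6), and all were matched by symbol. A length was found for 98.5% of genes and for 80 of the 81 members.

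AG-haESCs (3 libraries) and round sperm (1) were compared on log2(FPKM + 1) by limma 3.58.1 (R 4.3.3) with its trend option, two-sided, with Benjamini-Hochberg adjustment over all genes tested. The fit has 2 residual degrees of freedom and assumes that the lone library varies like the lines. The script was tested on simulated data. Comparisons across separately scaled tables, and between lines, rest on size and overlap alone, on log2(TPM + 1). The pseudocount of 1 understates changes of low genes.

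The members and lists were chosen with earlier results of these data known. Members named are the variant paralogs, the 10 highest and 10 lowest against round sperm, those called against ESC XX and between lines, those on chromosomes X and 8, and the 5 highest and lowest in level per group. Genes named from other lists are among the 2 highest and 2 lowest of each list, and not all of those are named. The values of 1 member are not reported here, though it is included in every count. Members named for their role, and those that stand apart in AOS-14, were chosen after their values were seen. Alternatives tried were a pseudocount of 0.1, no filter on low values, other scalings and centrings, short genes left out, and each library of a group with several left out. Leaving out Rps27, Rpl26, Rpl30 and Rpl34 was added after seeing the data.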

Additional observations from a re-analysis of the deposited data

How the results depend on the processing

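No paired analysis was possible because the labels give no number that ties an AG-haESC line to a round sperm or ESC XX library. Against round sperm, members called higher stayed within 1.5 times of 58 except without AOS-16 (35 to 55 over the left-out lines). Those called lower were 1 as deposited, 0 at the same total, 0 with quantile normalization and 0 at the same total without short genes, and ran from 0 to 2 over the left-out lines. The median of 2.24 became 3.33, 3.48 and 3.31 under these 3 scalings and ran from 2.02 to 2.34 over the left-out lines. Against ESC XX, 1 to 2 members were called higher and 0 to 1 lower over the left-out libraries, and 0 lower with the 4 uneven members left out. The median of 0.07 became -0.0769 with quantile normalization. Between A129-2 and the AOS lines, members called higher ran from 2 to 5 and lower from 0 to 3 over the left-out lines, with 2 higher and 0 lower when the 4 uneven members were left out, and the median of -0.18 became 0.0169 without centring. The members' share of FPKM in AG-haESCs became 28.2% without genes under 200 bases and 28.6% without genes listed at 0 in any library. Of 24 members checked against round sperm, 11 stayed called or stayed uncalled in every alternative, with Rpl38 and Rpl3l among the uncalled. Another 4 lost a call in at least 1, and 9 gained one. A reversal was looked for only in members called as deposited, and 0 were found. Rpl3l gave no value without A129-2. With 1 round sperm library and 1 library a line, spread within those groups is not measured, and FPKM without counts allows no interval for counting error.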
